A study of Mus musculus with 3 samples.

Results

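Valproate and lamotrigine, both antiepileptic drugs, were compared on 1 array each, across 22340 mouse genes read by the probes that are not controls. The cells were primary cultures from the cerebrum of C57BL6/J embryos at embryonic day 18, kept in neurobasal medium with B27, a supplement for neurons, and treated at day 10 in vitro for 24 h. The first culture received 1 mM valproate and the second 100 µM lamotrigine, and both contained 0.1% DMSO, the solvent. These are 2 of the 3 arrays of the series. The solvent array is not used here, so a difference shows which culture was higher and not which of them departed from solvent alone. Per the labels, the study was built to find genes that respond to valproate as a histone deacetylase inhibitor, and the lamotrigine array was not part of that work. The labels do not say how many embryos a culture came from.

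Valproate is a branched short-chain fatty acid. It raises GABA signalling, dampens repetitive firing and inhibits class I histone deacetylases, the enzymes that take acetyl groups off histone tails and so help to keep genes silent. Lamotrigine is a phenyltriazine that blocks voltage-gated sodium channels in a use-dependent way and is not known as a deacetylase inhibitor. Cultures of the late embryonic cerebrum hold neurons together with astrocytes, oligodendrocyte precursors and a few cells of other kinds, so a level here is an average over all of them.

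Levels are scaled signals, with the 75th percentile of each array set to 100, and differences are given as log2 of valproate minus log2 of lamotrigine, so that 1 is 2-fold higher with valproate and -1 is 2-fold higher with lamotrigine. With 1 array per drug there is no replicate check and no p-value, and the differences hold for these 2 cultures; precision is limited by how few arrays there are. The doses differ, and so no difference can be assigned to one drug at an equal exposure. Both arrays lay on 1 slide. The 75th percentile of the signal was 478 on the valproate array and 388 on the lamotrigine array, 52.9% and 51.6% of the spots were well above background, and no spot was saturated (0 on each). The median of 6 spike-in control probes put the valproate culture 0.15 higher in every difference than the percentile scaling does, and a direction smaller than that depends on the scaling.

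The cultures were alike for most genes. Of 14542 genes detected on both arrays, 88.0% lay within 1.5-fold, and the levels had a Pearson correlation of 0.987 across genes, which are not independent replicates. At least 2-fold higher with valproate were 300 genes (2.06%), and at least 2-fold higher with lamotrigine were 245 (1.68%). With spike-in scaling these counts were 444 and 164, so the balance between the directions depends on the scaling. Another 557 genes were detected with valproate only and 283 with lamotrigine only, and for them the difference is a lower bound. With these bounds included, 410 of 15382 genes passed 2-fold toward valproate (2.67%) and 337 toward lamotrigine (2.19%). Differences of at least 4-fold were seen for 28 and 11 genes among those detected on both arrays.

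**Figure D1:**
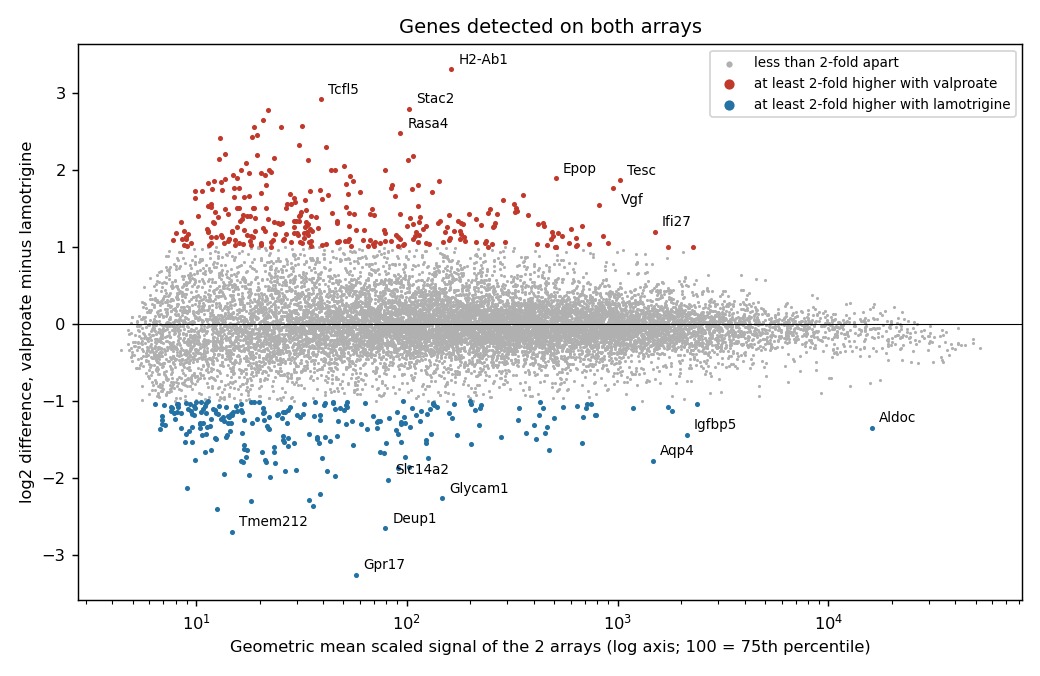
Each point is a gene detected on both arrays, with the geometric mean scaled signal of the 2 arrays on a log axis and the log2 difference, valproate minus lamotrigine, on the vertical axis. H2-Ab1 at 3.31 and Gpr17 at -3.25 stand at the ends, and the cloud narrows as the signal grows.

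How far apart a gene must be to stand out depends on its brightness. Probes printed 10 times on each array gave a median SD of the difference over spots of 0.24 (log2) below a scaled signal of 25, 0.11 from 25 to 100, 0.06 from 100 to 400 and 0.04 above. This spread covers printing, hybridisation and scanning, and not the difference between cultures, extractions or labelling reactions. The share of genes 2-fold higher with valproate was 4.48% below 25 and 0.563% at 400 and over, and with lamotrigine 4.74% and 0.483%. Large differences of dim genes are thus the least certain of those that follow.

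**Figure D2:**
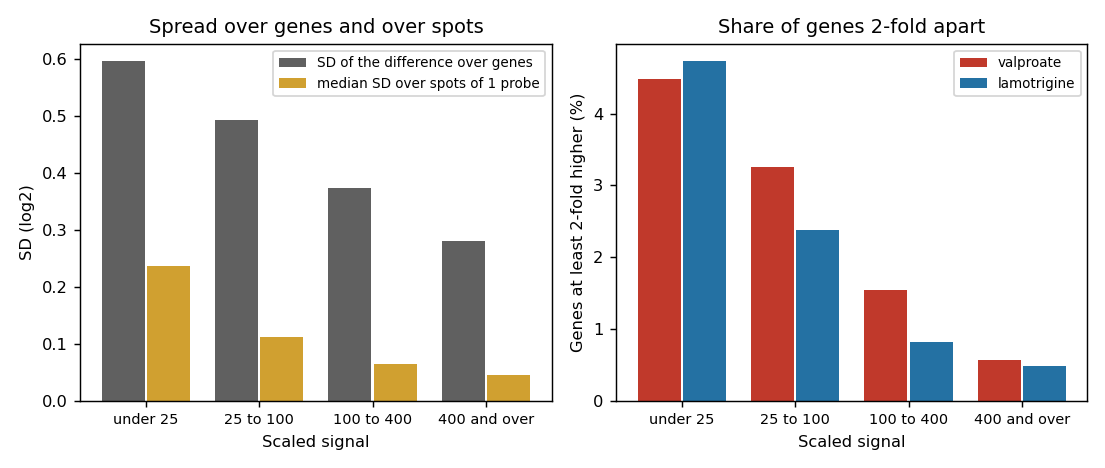
Left, bars from 0 show the SD of the log2 difference over genes and the median SD over the spots of repeated probes, in 4 ranges of scaled signal; right, the percentage of genes at least 2-fold higher with each drug. Both the spreads and the percentages are lowest at a scaled signal of 400 and over, where the SD over genes was 0.28 and that over spots 0.04.

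The gene highest with valproate encoded an antigen-presenting molecule. H2-Ab1, the beta chain of a class II molecule that displays peptides to helper T cells, read 510.1 with valproate and 51.5 with lamotrigine, 9.90-fold apart (probe at chr17:34406296-34406355, mm9, plus strand). A separate probe for it gave 3.26. Tcfl5, a transcription factor of the helix-loop-helix class, read 107.1 with valproate and 14.1 with lamotrigine (2.92). Stac2, an adaptor of calcium channels, read 269.9 with valproate and 38.9 with lamotrigine (2.79; probe at chr11:97897939-97897998, mm9, minus strand). Signalling and transport genes made up much of the rest. Rab37, a GTPase that steers secretory vesicles, read 57.6 with valproate and 8.42 with lamotrigine (2.77), and a second probe for it gave 2.94. Slc16a3, a lactate exporter, read 77.4 with valproate and 13.1 with lamotrigine (2.56), and its other probe gave 2.76. Rasa4, which switches off the small GTPase Ras, read 218 with valproate and 39.3 with lamotrigine (2.47). Dgkk, a kinase of the lipid diacylglycerol, read 227 with valproate and 50.2 with lamotrigine (2.17).

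Several of these 15 genes were dim with lamotrigine. Nptx2, a secreted pentraxin that clusters glutamate receptors at synapses, read 42.7 with valproate and 7.92 with lamotrigine (2.43), and Oas1a, an antiviral sensor of double-stranded RNA, 52.1 with valproate and 8.28 with lamotrigine (2.65). H2-M3, which presents bacterial peptides, was at 2.56, and the metal ion transporter Slc39a8 at 2.42. Nxnl2 at 2.33, Tmem159 at 2.30, the cyclic nucleotide phosphodiesterase Pde8a at 2.20 and Abhd15 at 2.20 complete the 15. In 11 of the 15 the lower signal was under 25.

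**Figure D3:**
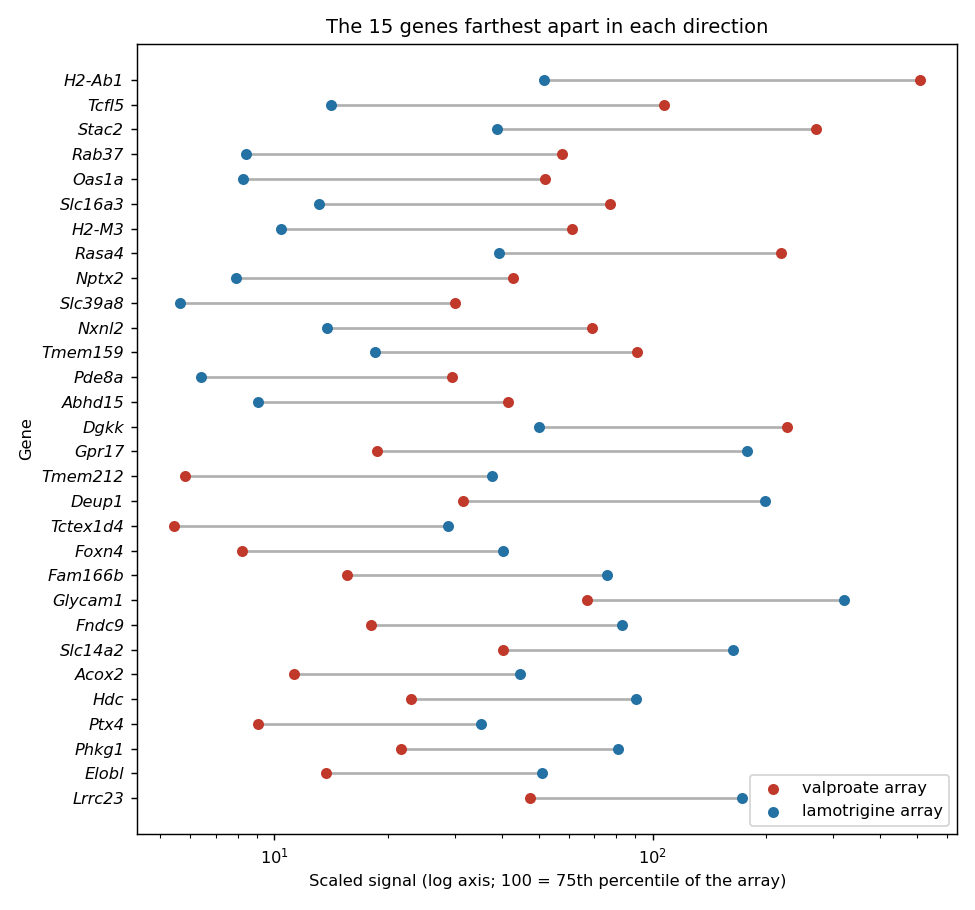
The 15 genes with the highest and the 15 with the lowest log2 difference of those detected with both drugs, each with its scaled signal on the valproate and on the lamotrigine array on a log axis and a line joining them. The lines run from 4.52-fold to 9.90-fold in the upper set and from 3.65-fold to 9.55-fold in the lower set.

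The gene farthest toward lamotrigine marks a step in the making of oligodendrocytes. Gpr17, a receptor carried by committed oligodendrocyte precursors, read 18.6 with valproate and 178 with lamotrigine, 9.55-fold apart (probe at chr18:32102750-32102809, mm9, minus strand). Genes of motile cilia came next. Tmem212 read 5.81 with valproate and 37.6 with lamotrigine (-2.69), and Deup1, which builds the many centrioles of multiciliated cells, read 31.6 with valproate and 198 with lamotrigine (-2.65; probe at chr9:15365002-15365061, mm9, minus strand). Tctex1d4, a dynein light chain relative, was at -2.40, Foxn4, a transcription factor of interneuron and multiciliated cell fate, at -2.29 and Fam166b at -2.29. Lrrc23, a radial spoke protein, read 47.3 with valproate and 173 with lamotrigine (-1.87). The remaining genes of the 15 had other roles. Glycam1, a mucin-like glycoprotein, read 67.0 with valproate and 322 with lamotrigine (-2.26), and the urea transporter Slc14a2 read 40.3 with valproate and 164 with lamotrigine (-2.02). Hdc, which makes histamine, was at -1.97, the peroxisomal bile acid oxidase Acox2 at -1.98, and the pentraxin Ptx4 at -1.96, with -1.70 on another probe. Phkg1, a subunit of phosphorylase kinase, was at -1.90, Fndc9 at -2.21 and Elobl at -1.90. In 11 of these 15 the lower signal was under 25.

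Among bright genes, whose geometric mean over the arrays was 400 or more, the ends of the range were shorter. The genes of this paragraph were chosen after their values were seen. Epop, a partner of the Polycomb repressive complex, read 978 with valproate and 263 with lamotrigine (1.90), and Tesc, a calcium-binding regulator of a sodium-proton exchanger, 1962 with valproate and 538 with lamotrigine (1.87). Rgs10, which shortens G-protein signals, was at 1.54. Toward lamotrigine, Cmtm5 read 396 with valproate and 1156 with lamotrigine (-1.54), with -1.51 on another probe, and Igfbp5, a carrier of insulin-like growth factors, 1293 with valproate and 3497 with lamotrigine (-1.44). Slc25a18, a mitochondrial glutamate carrier of astrocytes, was at -1.497.

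Genes detected with 1 drug only give bounds. Ppm1j, a protein phosphatase, read 59.4 with valproate and was not well above background with lamotrigine, at least 12.8-fold higher. Fcgr3, a receptor for antibody, was at least 11.3-fold higher, Mgarp, a mitochondrial protein, at least 8.03-fold, the water channel Aqp5 at least 7.73-fold and Esyt3, a membrane tether, at least 7.23-fold. With lamotrigine only, Nox3, an oxidase of the inner ear, read 26.8 and was at least 6.90-fold higher. Cdk3 was at least 5.17-fold higher, Tcl1b2 5.11-fold, Styxl1 4.70-fold and the odorant receptor Olfr43 4.67-fold. These bounds rest on a detection floor of 3.88 on the valproate array and 4.63 on the lamotrigine array. With normexp background correction they were smaller. On the log2 scale the 5 toward valproate went from between 2.85 for Esyt3 and 3.68 for Ppm1j to between 1.22 for Aqp5 and 1.90 for Ppm1j, Nox3 from -2.79 to -1.22 and Cdk3 from -2.37 to -1.16, while Tcl1b2, Styxl1 and Olfr43 were under 2-fold.

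Genes of motile cilia had the lowest median of the 52 gene lists described. The lists were chosen with earlier results of these data known. This list holds Tmem212, Deup1, Fam166b and Lrrc23, already named above among the genes farthest toward lamotrigine. Its rank, median and count of 2-fold genes are thus not independent of that choice, and they describe the list only. Motile cilia are the beating hairs of ependymal cells, which line the brain ventricles and move the fluid in them; their genes are switched on by the factors Foxj1 and RFX. Of 42 genes listed, 37 were measured, 35 of them below 0. At least 2-fold higher with lamotrigine were 11 and with valproate 0, against 2.19% and 2.67% of all genes, bounds included. The median was -0.64 against -0.03 over all genes (range over alternative settings -0.68 to -0.49). In such mixed cultures fewer cells of a type and less RNA per cell cannot be told apart. For 8 of 34 members matched, the promoter window of 250 bases before and 50 after the start held the RFX half-site GTTGCCA on either strand (23.5%), against 5.06% of all 12084 measured genes with a window. The motif was chosen after seeing the data. It was in 7.58% of the windows of genes at least 2-fold higher with lamotrigine and in 2.19% of those higher with valproate. The former include the cilium genes Deup1, Ccno, Cfap161 and Lrrc23, so the shares of 7.58% and 23.5% overlap. List members with the motif had a median of -0.87 and those without it -0.54. The following stretches, from RefSeq on GRCm38.p6 and written along the gene's strand, show it in capitals for members that were at least 2-fold apart, at chr6:124779728-124779811 (minus strand) and chr13:112987552-112987634 (plus strand).
Lrrc23: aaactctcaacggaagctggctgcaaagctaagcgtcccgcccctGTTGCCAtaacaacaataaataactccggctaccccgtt
Ccno: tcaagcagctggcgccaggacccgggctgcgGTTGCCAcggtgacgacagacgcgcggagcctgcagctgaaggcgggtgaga

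The cilium genes farthest from 0 spanned several parts of the organelle and of its making. Foxj1, the master transcription factor, read 484 with valproate and 1029 with lamotrigine (-1.09), and Ccno, a cyclin relative needed for centriole amplification, 71.9 with valproate and 209 with lamotrigine (-1.54). Cfap126, a basal body protein, read 277 with valproate and 736 with lamotrigine (-1.41), with -1.52 on another probe. All 3 are thus above the dim range on both arrays. Among axonemal genes, the tektin Tekt4 was at -1.42, the dynein light chain Dnali1 at -1.38, the dynein intermediate chain Dnaic1 at -1.003, Cfap161 at -1.05, and the radial spoke gene Rsph1 at -0.91. Some regulators stood near 0. Mcidas, which acts upstream of Foxj1, read 1753 with valproate and 1730.1 with lamotrigine (0.02), although its window also held the RFX half-site. Gmnc, which acts upstream of Foxj1 too, was not well above background on either array. The dynein heavy chain Dnah7a was at -0.53 on its brightest probe and at -0.66 and 0.78 on others, so its direction depends on the probe. Ift43, of the transport machinery shared by all cilia, was at 0.22.

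Astrocyte markers were also higher with lamotrigine. Astrocytes support neurons by clearing glutamate, potassium and water. Of 16 markers, all measured, 15 were below 0, with a median of -0.59. At least 2-fold higher with lamotrigine were 2 and with valproate 0, against 2.19% and 2.67% of all genes. Their summed scaled signal, which bright probes weigh most, was 37720.1 with valproate and 66696 with lamotrigine, and 27647 and 41091 without Aldoc, which gave the most of that gap. Aqp4, the water channel of astrocyte endfeet, read 795 with valproate and 2715 with lamotrigine (-1.77; probe at chr18:15547951-15548010, mm9), and another probe gave -1.69. Aldoc, a brain aldolase of glycolysis, read 10073 with valproate and 25605 with lamotrigine (-1.35). Both are bright, where spots of repeated probes differed little. The gap junction proteins Gjb6 and Gja1 were at -0.96 and -0.87; for Gja1 the SD over 10 spots was 0.06. The membrane protein Mlc1 was at -0.80, and the glutamate transporter Slc1a2 at -0.67. In contrast Gfap, the intermediate filament of reactive astrocytes, read 2332 with valproate and 2603 with lamotrigine (-0.16), and Aldh1l1 (-0.20) and Fgfr3 (0.00) were closer to 0. With spike-in scaling the list median was -0.45.

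Other cell types showed smaller shifts. Oligodendrocyte lineage markers had a median of -0.21 over 15 measured of 18 (-0.22 to -0.07 over alternative settings). Apart from Gpr17, Mag, a myelin protein, was detected with lamotrigine only and was at least 2.44-fold higher there. Olig1 read 2853 with valproate and 2755 with lamotrigine (0.05), Sox10 was at -0.49 and Cspg4, of early precursors, at 0.63. So the members did not move as 1 group, and Enpp6, Mobp and Myrf were not well above background on either array. All 17 pan-neuronal markers were measured, with a median of -0.19, from -0.68 for Tubb3, a neuronal tubulin (3996 with valproate and 6399 with lamotrigine), to 0.92 for the neurofilament Nefm (198 with valproate and 105 with lamotrigine), with an SD of 0.04 over 10 spots; with spike-in scaling the median was -0.05. Excitatory and inhibitory neuron markers had medians of -0.00 and 0.03, and in each list 0 members were at least 2-fold apart. That count is near the share over all genes, 2.67% toward valproate and 2.19% toward lamotrigine. Progenitor markers had a median of -0.19 (-0.21 to -0.04 over alternative settings), with Vim at -0.61. Fibroblast markers had a median of -0.28 (-0.29 to -0.14), with the matrix protein Ogn at -0.85.

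Microglia are the cells of the brain that usually carry class II molecules and Fcgr3. Of 16 microglia markers, 9 were measured, with a median of 0.04 whose sign depends on the processing, and the defining genes Cx3cr1, P2ry12, Trem2, Tyrobp, C1qa, C1qc and Ptprc were not well above background on either array. Csf1r, the receptor that keeps microglia alive, read 95.7 with valproate and 103 with lamotrigine (-0.10). Other class II genes were closer to 0 than H2-Ab1 or were not detected. H2-Aa, the alpha chain that pairs with it, was not well above background on either array, and Cd74, the chaperone of class II molecules, read 7.64 with valproate and 9.07 with lamotrigine (-0.25). Ciita, the master regulator of class II genes, was dim, at 5.54 with valproate and 7.26 with lamotrigine (-0.39). Both are close to the detection floors of 3.88 and 4.63. H2-Eb1 was at -0.09. H2-DMa and H2-DMb1, which load peptides, were at 0.63 and 0.55. The class II list had a median of 0.23 over 6 measured of 11, which turned to -0.25 without the detection filter. Among endothelial markers, Flt1, a receptor of vascular growth factor, was detected with valproate only and was at least 5.90-fold higher, and Ly6c1 was at 1.76; Cldn5 and Tek were not well above background, and the list median was -0.07, with a sign that depends on the scaling.

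Class I antigen presentation, which displays cytosolic peptides to killer T cells, was higher with valproate. Of 20 genes, 19 were measured, with a median of 0.55 (0.37 to 0.70 over alternative settings). At least 2-fold higher with valproate were 5 and with lamotrigine 0, against 2.67% and 2.19% of all genes. The windows of 5 of 15 matched members held the interferon response core GAAANNGAA on either strand, 33.3% against 8.34% of all genes. Members with it had a median of 0.53 and those without it 0.87. The following stretches, from the same source, show it in capitals in 3 of the 5, at chr17:36032771-36032869 and chr17:36042879-36042977 (minus strand) and chr2:122147503-122147601 (plus strand).
H2-T23: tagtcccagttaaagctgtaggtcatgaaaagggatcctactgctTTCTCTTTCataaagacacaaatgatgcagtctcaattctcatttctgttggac
H2-T22: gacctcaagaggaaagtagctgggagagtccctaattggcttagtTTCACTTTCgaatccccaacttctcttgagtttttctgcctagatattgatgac
B2m: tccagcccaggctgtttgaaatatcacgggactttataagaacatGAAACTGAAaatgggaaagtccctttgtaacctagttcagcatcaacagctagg

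The members covered presentation from the proteasome to the surface. Psmb9 and Psmb8, subunits of the immunoproteasome that cuts peptides, read 183 with valproate and 78.2 with lamotrigine (1.23) and 99.4 with valproate and 48.4 with lamotrigine (1.04). Tap1, which pumps peptides into the endoplasmic reticulum, was at 0.84, with an SD of 0.12 over 10 spots, and Tap2 at 0.35. At the surface, H2-D1 read 1268 with valproate and 576 with lamotrigine (1.14) and H2-K1 1682 with valproate and 895 with lamotrigine (0.91), the latter with an SD of 0.03 over 10 spots and 0.99 on another probe. H2-T23 was at 1.27 and their shared light chain B2m at 0.55. Class I genes share long stretches of sequence, so a probe may read several copies and their single values are uncertain. Not all members stood on this side, as 13 were above 0 and 6 below. The class I gene H2-Q4 read 4571 with valproate and 5219 with lamotrigine (-0.19), and Tapbp was at -0.17. Psmb10 read 825 with valproate and 1301 with lamotrigine (-0.66), the peptide trimmer Erap1 was at -0.71, and Psme1 and Psme2, of the proteasome activator, were at -0.00 and -0.02. The windows of Psme1 and Erap1 are the other ones with the response core.

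Interferon-stimulated genes, which cells switch on against viruses, followed the same direction. Of 35 genes, 34 were measured, 26 of them above 0, with a median of 0.41. At least 2-fold higher with valproate were 7 (3 with normexp background correction) and with lamotrigine 0, against 2.67% and 2.19% of all genes. Ifi27, a mitochondrial protein, read 2270.4 with valproate and 988 with lamotrigine (1.20), and Bst2, which tethers budding viruses, 541 with valproate and 198 with lamotrigine (1.45). Isg15, a ubiquitin-like protein, read 306 with valproate and 156 with lamotrigine (0.97), with 1.18 on another probe, and Usp18, which removes it, was at 1.08. Several sensors shared the direction. Oas1c was at 1.30, Oasl2 at 1.08, and Dhx58, a relative of the RNA sensor RIG-I, was detected with valproate only, at least 2.73-fold higher. The transcription factors of the response were nearer 0, with Stat2 at 0.27, Irf1 at -0.07 and Irf9 at -0.04. The guanylate-binding protein Gbp2 was at -0.70. Trim25 was at -0.36 on its brightest probe and 1.21 on another, so its direction depends on the probe. The response core was in 17 of 25 matched windows (68.0%), and members with it had a median of 0.44 and those without it 0.47.

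**Figure D4:**
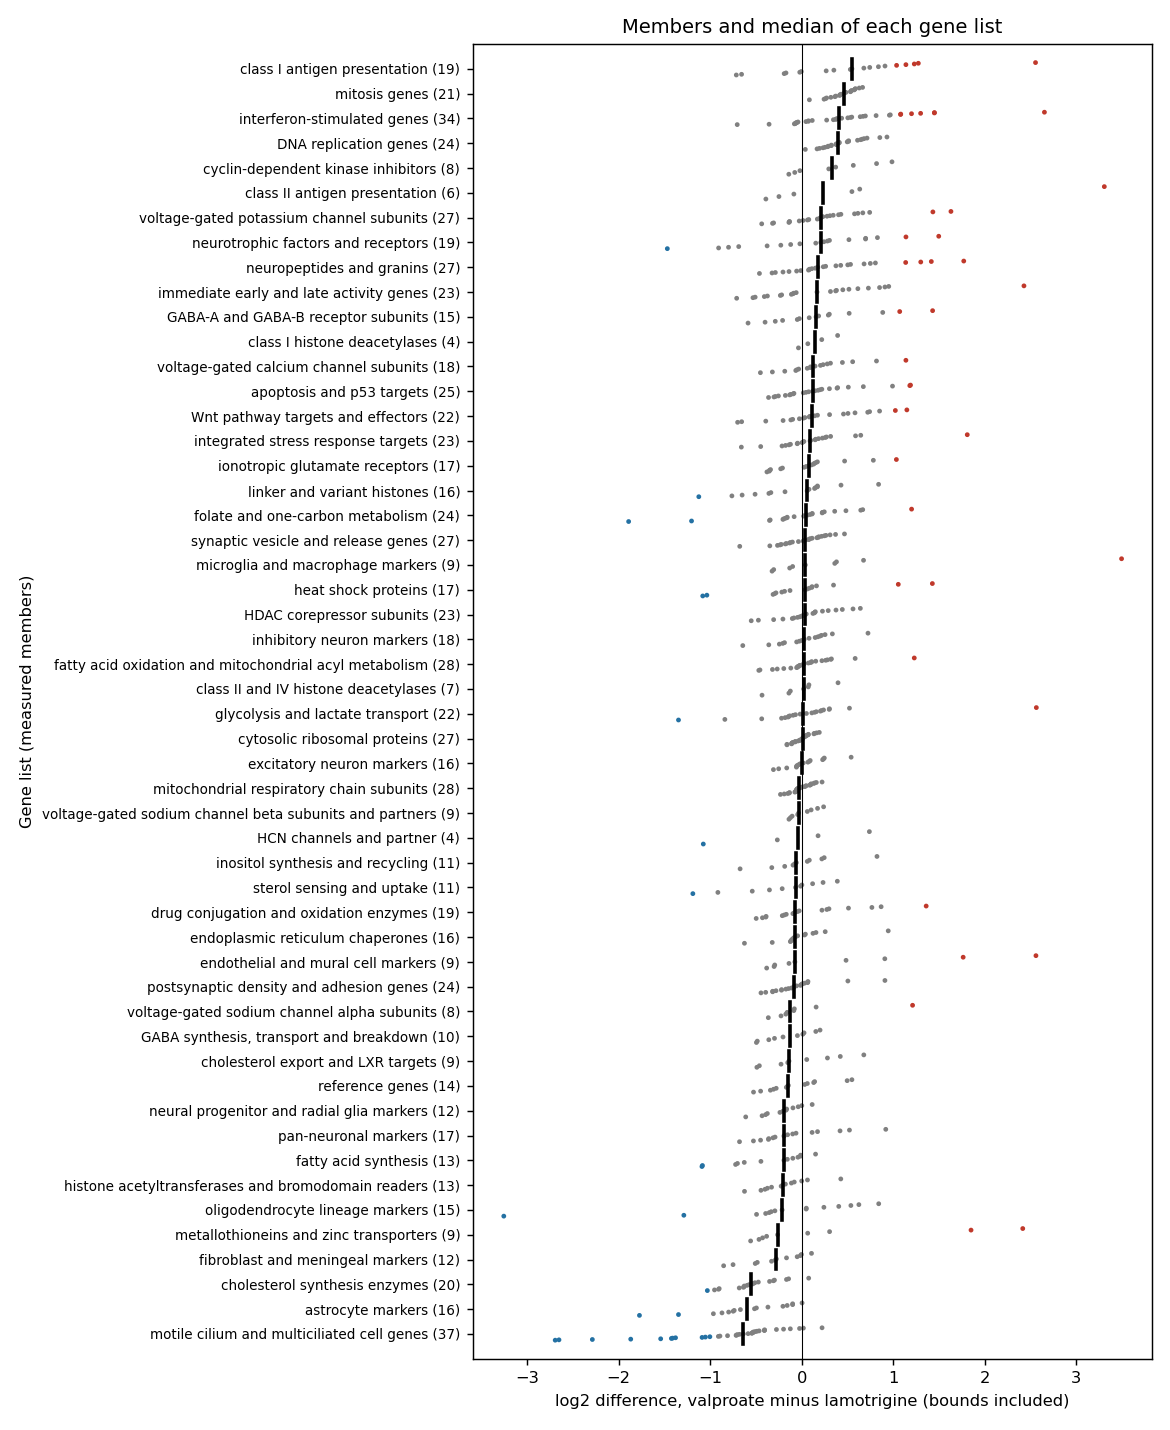
Each row is 1 of the 52 gene lists, with its measured members as points (log2 difference, valproate minus lamotrigine; red, at least 2-fold higher with valproate; blue, with lamotrigine) and the median as a black bar. Class I antigen presentation at 0.55 is the highest row and motile cilium genes at -0.64 the lowest. The lists were chosen with earlier results of these data known, so the order of the rows is a description only.

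Enzymes of cholesterol synthesis were lower with valproate than with lamotrigine at almost every step. Cells make cholesterol from acetyl-CoA through mevalonate and squalene, and the sensors Insig1 and Scap adjust the pathway through SREBP factors. All 20 enzymes were measured, 19 were below 0, and the median was -0.56 (-0.56 to -0.41 over alternative settings). Lss was the 1 enzyme at least 2-fold apart, against 2.19% of all genes toward lamotrigine and 2.67% toward valproate. At the start of the pathway, Hmgcs1 read 6776 with valproate and 12655 with lamotrigine (-0.90), although another probe for it gave -0.20. Idi1, which makes the building block for squalene, read 528 with valproate and 1021 with lamotrigine (-0.95). Among the later steps, Lss, which closes the sterol rings, read 31.0 with valproate and 63.4 with lamotrigine (-1.03), and Tm7sf2 799 with valproate and 1499 with lamotrigine (-0.91). Ebp was the 1 enzyme above 0, at 0.08. The sterol response motif TCACNCCAC was in 1 of 15 matched windows, that of Hmgcs1 (chr13:119690169-119690267, plus strand, with the motif in capitals), and the NF-Y box CCAAT in 14 (93.3%), against 1.39% and 42.3% of all genes.
Hmgcs1: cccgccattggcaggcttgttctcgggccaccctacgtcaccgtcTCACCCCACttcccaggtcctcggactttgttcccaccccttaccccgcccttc

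**Figure D5:**
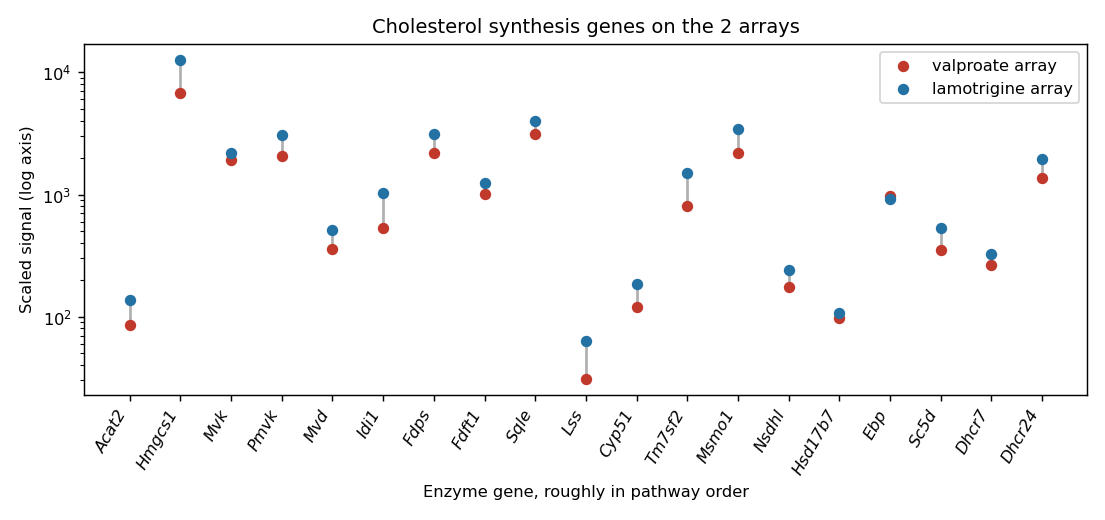
Scaled signal of cholesterol synthesis genes on the valproate and the lamotrigine array on a log axis, roughly in pathway order. The lamotrigine point is the upper one for every gene drawn but Ebp.

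Genes of sterol sensing and fatty acids gave a mixed picture. Insig1, which holds SREBP back, read 45.7 with valproate and 104 with lamotrigine (-1.19). Srebf1 was at -0.54 and Srebf2 at -0.35, with 0.03 on another probe, and the list median was -0.07, with a sign that depends on the scaling. Of 13 genes of fatty acid synthesis 12 were below 0, with a median of -0.19 (-0.20 to -0.05 over alternative settings). Some lay closer to 0 than the spike-in shift of 0.15, so the count of 12 depends on the scaling. The desaturases stood apart most. Scd1 read 812 with valproate and 1729 with lamotrigine (-1.09), Fads2 304 with valproate and 645 with lamotrigine (-1.08), with -0.85 on another probe, and Scd2 13742 with valproate and 22668 with lamotrigine (-0.72). Acly, which supplies acetyl-CoA, was at -0.16 and Acss2 at -0.01. Genes that burn fatty acids, which matter because valproate is itself a fatty acid broken down in mitochondria, had a median of 0.02 over 28. Ucp2, a mitochondrial carrier, was the 1 member at least 2-fold apart (53.2 with valproate and 22.7 with lamotrigine, 1.23). The share over all genes was 2.67% toward valproate and 2.19% toward lamotrigine, and Ucp2 was at 0.84 with normexp correction.

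Genes of cell division were slightly higher with valproate. In the lists of DNA replication and mitosis genes 0 were at least 2-fold apart, which is near the share over all genes. That share was 2.67% toward valproate and 2.19% toward lamotrigine. All 24 DNA replication genes and all 21 measured mitosis genes were above 0, with medians of 0.40 and 0.46. These directions held under each of the alternative settings for the list medians, which ranged from 0.38 to 0.55 and from 0.43 to 0.60. Single genes varied more, from 0.04 for Pcna, the sliding clamp of DNA polymerase, to 0.93 in the replication list, and from 0.08 for the kinesin Kif20a to 0.67 in the mitosis list. Chaf1b, which lays histones on new DNA, read 784 with valproate and 411 with lamotrigine (0.93), and the helicase subunit Mcm3 789 with valproate and 481 with lamotrigine (0.71). Mki67, the common marker of dividing cells, read 1418 with valproate and 894 with lamotrigine (0.67), with 0.62 on another probe, and the mitotic cyclin Ccnb2 618 with valproate and 415 with lamotrigine (0.57). The E2F motif TTTNNCGC was in 11 of 21 matched windows of replication genes (52.4%, against 9.15% of all genes), and CCAAT in 16 of 18 of mitosis genes (88.9%). Of 8 inhibitors of the cycle, 5 were above 0 and 0 at least 2-fold apart, again near the share over all genes, with a median of 0.33. Cdkn2a, which encodes p16 and p19ARF, read 238 with valproate and 120.3 with lamotrigine (0.99), with 0.90 on another probe, Cdkn1c 477 with valproate and 270.2 with lamotrigine (0.82) and Cdkn1a, p21, 1156 with valproate and 894 with lamotrigine (0.37, with an SD of 0.05 over 10 spots). Below 0 were Cdkn1b, p27, at -0.02, Cdkn2b at -0.14 and Cdkn2c at -0.08.

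The known targets of the drugs were mostly close to equal, as most genes were. Of the class I histone deacetylases, Hdac1 read 2695 with valproate and 2053 with lamotrigine (0.39), and its other probes gave 0.42 and 0.41. Hdac2 was at 0.22, where the SD over 9 spots was 0.32, Hdac3 at -0.04 and Hdac8 at 0.07, with 0.43 on another probe. None of the 4, none of 7 other deacetylases and none of 23 corepressor subunits was at least 2-fold apart (0 in each list). As 2.06% and 1.68% of all genes were 2-fold apart, a count of 0 in lists of this size is near the share over all genes. Of the pore-forming sodium channel subunits, Scn2a read 700.3 with valproate and 782 with lamotrigine (-0.16), Scn3a 325 with valproate and 380.4 with lamotrigine (-0.23), Scn8a 294 with valproate and 310.3 with lamotrigine (-0.08) and Scn1a 69.0 with valproate and 61.8 with lamotrigine (0.16). Another probe for Scn8a gave 0.50, so its direction depends on the probe. These are the channels of central neurons, and all 4 lay within 1.5-fold on their brightest probes, as did 88.0% of all genes. Scn11a, of pain-sensing neurons, was dim, at 17.4 with valproate and 7.51 with lamotrigine (1.21), and was below 2-fold with normexp background correction (0.50). Scn4a was at -0.09, Scn9a was detected with lamotrigine only at 5.00, and Scn7a and Scn10a were not well above background on either array. The list median of -0.12 changed sign with spike-in scaling (0.02). The linker histone H1f0, often raised by deacetylase inhibitors, read 54.2 with valproate and 30.3 with lamotrigine (0.84), and the core histone H2bc4 1229 with valproate and 2678 with lamotrigine (-1.12).

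Other ion channels and receptors had single members apart. Potassium channel subunits had a median of 0.21 over 27 measured, 20 of them above 0; the modifier subunits Kcns1 and Kcng1 read 51.1 with valproate and 16.5 with lamotrigine (1.63) and 92.5 with valproate and 34.2 with lamotrigine (1.43). Of the GABA receptor subunits, Gabrd, of receptors outside synapses, read 323 with valproate and 119.8 with lamotrigine (1.43), and Gabrg1 216 with valproate and 103 with lamotrigine (1.07). Enzymes and transporters of GABA were within 1.5-fold for all 10 genes, again near the share over all genes, with Gad1 at 0.03 and Abat, which breaks GABA down, at 0.01. Among calcium channel subunits, Cacna2d2 read 734 with valproate and 333 with lamotrigine (1.14) and the T-type channel Cacna1g 310.4 with valproate and 176 with lamotrigine (0.82), with 0.85 on another probe. Of ionotropic glutamate receptors, 1 of 17 was at least 2-fold apart, against 2.67% of all genes toward valproate and 2.19% toward lamotrigine. This was Grin2d, detected with valproate only at 9.48, and it was at 0.22 with normexp correction. Synaptic vesicle genes and postsynaptic genes each had 0 members at least 2-fold apart, near the share over all genes; among them, Syt5 was at -0.68 and the activity-regulated Arc at 0.91.

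Genes of secreted peptides lay mostly above 0. Of 27 measured neuropeptide and granin genes, 20 were above 0, with a median of 0.18. At least 2-fold higher with valproate were 4 and with lamotrigine 0, against 2.67% and 2.19% of all genes. Vgf, a granin precursor of several peptides, read 1760.5 with valproate and 516 with lamotrigine (1.77; probe at chr5:137509153-137509212, mm9). Cort, cortistatin of inhibitory neurons, read 260.0 with valproate and 97.4 with lamotrigine (1.42), Cartpt, a precursor of feeding peptides, 39.2 with valproate and 15.9 with lamotrigine (1.30), and Gal, galanin, 162 with valproate and 73.7 with lamotrigine (1.14). Penk, enkephalin, read 1170.1 with valproate and 669 with lamotrigine (0.81). Sst, somatostatin, was at 0.18 and Npy, neuropeptide Y, at 0.15. Growth factors and their receptors went both ways. Cntf, a factor made by astrocytes, read 169 with valproate and 467 with lamotrigine (-1.47), with -1.34 on another probe, and Fgf1 578 with valproate and 1085 with lamotrigine (-0.91). Ret, the receptor of the GDNF family, read 22.98 with valproate and 8.14 with lamotrigine (1.498), below 2-fold with normexp correction (0.48), and its ligand Nrtn 811 with valproate and 368 with lamotrigine (1.14). Bdnf was at 0.52, and its receptor Ntrk2 at -0.80 on the brightest probe and -0.09 on a probe printed 10 times. Immediate early genes also split, with Fos at -0.71 (SD 0.11 over 10 spots), Jun at -0.51, Egr1 at 0.85 and Egr4 at 0.95.

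Lists of stress and metabolism had a few members apart. Of the small heat shock proteins, Cryab read 1187 with valproate and 2512 with lamotrigine (-1.08), Hspb8 523 with valproate and 1072 with lamotrigine (-1.04) and Hspb1 1300.0 with valproate and 625 with lamotrigine (1.06), so relatives stood on opposite sides. The inducible chaperone Hspa1a read 109.7 with valproate and 40.8 with lamotrigine (1.43). Among death genes, Ripk3 and Mlkl, of necroptosis, were higher with valproate, at 1.18 and at least 2.28-fold. Stbd1, a glycogen-binding protein, read 211 with valproate and 60.3 with lamotrigine (1.81), and other targets of the integrated stress response were within 2-fold, with Ddit3 at 0.18 and Atf3 at -0.66. The list of metallothioneins and zinc transporters had a median of -0.26 over 9 genes (-0.27 to -0.12 over alternative settings). The metallothioneins Mt1, Mt2 and Mt3 were at -0.43, -0.47 and -0.56, against 1.85 for the vesicular zinc transporter Slc30a3. Folr1, a folate receptor, read 451 with valproate and 1038 with lamotrigine (-1.20), with -1.31 on another probe, and Folr2 was at least 3.71-fold higher with lamotrigine. Both receptors thus stood on the same side. Shmt1 was at 1.20 on 1 probe and -0.17 on another. Abcg2, a drug efflux pump, read 339 with valproate and 132 with lamotrigine (1.36). In the inositol list, Slc5a3, an inositol importer, was at -0.67, with -0.89 on another probe, and Impa2, which releases inositol, read 198 with valproate and 112 with lamotrigine (0.82). Wnt pathway genes had a median of 0.12, with the secreted binders Sfrp2 and Wif1 at 1.15 and 1.02 and the effector Lef1 at 0.85.

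Ribosomal protein and respiratory chain genes were close to equal, and common reference genes less so. The 27 ribosomal protein genes ranged from -0.16 to 0.19, with a median of 0.01, and the 28 respiratory chain genes from -0.23 to 0.22. The 14 reference genes ran from -0.53 to 0.55, with a median of -0.15 that changed sign under quantile normalization. Gapdh was at -0.15 on its brightest probe and at 0.11, -0.06 and 0.04 on others, so its direction depends on the probe. Actb was at -0.34, Tbp at 0.06 and Ywhaz at -0.53. Hprt, at 0.50 (SD 0.05 over 10 spots), and B2m, at 0.55, lay highest of the 14.

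Separate probes for a gene mostly gave the same direction. Of the 2-fold genes, 93 had a further detected probe, which had the same sign for 88 and was itself at least 2-fold apart for 58. Cxcl12, a chemokine, was at -1.31 on 1 probe and 0.08 on another, and Ccdc47 at 1.67 against -0.19. These were chosen after their values were seen. Probes for long intergenic RNA regions, 4211 of 16251 detected on both arrays, had a median difference of -0.15. Of these, 52 (1.23%) were at least 2-fold higher with valproate and 59 (1.40%) with lamotrigine. Among gene probes detected on both arrays the shares were 1.81% and 1.54%. The region probes were mostly dim, with a median scaled signal of 20.3. Their median difference is about as large as the spike-in shift of 0.15, so it depends on the scaling.

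Some of the 2-fold calls depend on the processing. Of 97 genes at least 2-fold apart that the naming rule covers, which leaves out those chosen after their values were seen, 33 were under 2-fold in at least 1 alternative setting, 28 of them with normexp background correction, which shrinks the differences of dim genes, and 10 with spike-in scaling. With spike-in scaling these included Foxj1, Dnaic1, Cfap161, Lss, Scd1, Fads2, Cryab, Hspb8 and H2bc4. With normexp they included Oas1c, Oasl2, Usp18, Dhx58, Psmb8, Lss, Cartpt, Ret, Ripk3, Mlkl, Slc30a3, Folr2, Mag, Ly6c1, Cfap161, Dnaic1, Gabrg1, Hspb8, Sfrp2, Wif1 and Shmt1. The direction of each of the 97 stayed the same in all 8 settings.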

How the data were processed

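Gene expression was measured on 1 one-colour Agilent array per drug. Per the labels, TRIzol-extracted RNA was amplified and labelled with Cy3 (Low Input Quick Amp). Per the file headers, the deposited intensity of each spot is the processed signal of Feature Extraction 10.7.1.1, background-subtracted and detrended within each array, and probes were annotated on mm9. The authors also deposited a table of linear intensity values, quantile normalized as judged from its sorted columns, which served as an alternative; its presence calls were not used.

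Of 62976 spots, 59305 were not controls, for 55681 probes of mostly 60 bases. Signals were divided by the array's 75th percentile (set to 100), spots marked as outliers were left out, and the log2 values of a probe's spots were averaged. Detection means that most spots of a probe were marked well above background in the deposited flags. Probes were matched to RefSeq genes by accession (27325), symbol (3518) or older symbol (551); 16251 lincRNA probes and 8036 others had no gene. A gene was read by its brightest probe. Where it was detected on 1 array, the other side was set to the higher of its own signal and the floor, which gives a bound. Signals of different probes were not compared, though 1 list is also given as a sum. Whether a probe lies in a coding exon or a UTR was not analysed here.

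Genes named are the 15 highest and 15 lowest of genes detected on both arrays and at least 2-fold apart, the 5 highest bounds each way, list members at least 2-fold apart or up to 4 farthest from 0, the class I histone deacetylases, the sodium channel alpha subunits and the reference genes, without symbols of clones and predicted genes; others were chosen after their values were seen, and some named by the rule are counted in their lists only. The genes compared and the lists were chosen with earlier results of these data known. Motifs searched on both strands were GAAANNGAA, TCACNCCAC, CCAAT, TTTNNCGC, TGACGTCA, TGATGNAA and GTTGCCA; a match is a description only. The code was tested on simulated data. Tools were numpy 2.4.6, pandas 2.3.3, matplotlib 3.10.9 and, for normexp with an offset of 50, limma 3.58.1 in R 4.3.3. No test was made, as there is 1 array per drug.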

Additional observations from a re-analysis of the deposited data

How the results depend on the processing

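Results were recomputed under 8 other settings of the values and with thresholds of 1.5-fold and 3-fold. The counts of genes higher with valproate and with lamotrigine, 300 and 245, became 124 and 97 after normexp, 792 and 1253 when no detection filter was used, 898 and 849 at 1.5-fold, and 75 and 42 at 3-fold. They were 444 and 164 with spike-in scaling, 323 and 224 with quantile normalization and 331 and 227 in the deposited table. Genes higher with valproate made up 55.0% of the 2-fold genes, 73.0% with spike-in scaling and 38.7% without the filter. The SD of the differences, 0.42, was 0.32 with normexp and 0.59 without the filter. Of 52 list medians, 31 kept their sign under all 8 settings. Without the filter the medians of class II antigen presentation, neurotrophic factors and immediate early genes turned to -0.25, -0.019 and -0.047; that of the reference genes was 0.022 under quantile normalization and 0.0084 in the deposited table. The cause of these turns was not tested. All 97 genes of the naming rule at least 2-fold apart kept their direction under the 8 settings, and 64 stayed at least 2-fold apart in each. No paired analysis was possible because there was 1 array per drug. Precision was lowest under a scaled signal of 25, where the median SD over spots of repeated probes was 0.24.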
